A study of Danio rerio with 32 samples.

Results

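The genes that build the motile cilium were followed in zebrafish tailbuds of 4 genotypes, with and without stimulation of Wnt signalling. The members were taken by symbol: dnah, dnai and dnal for dynein chains, dnaaf for dynein assembly factors, rsph for radial spoke proteins and drc for the nexin link. Further symbols were odad for the docking complex of the outer arm, tekt for tektins, and spef and cfap for other proteins of cilia and flagella. Not every cfap member need belong to the motile axoneme. This rule took 93 of the 32057 genes in the count table, and it used no measured value. By the structure they belong to, 13 were outer arm genes, 4 outer arm docking, 14 inner arm, 9 radial spoke, 4 nexin link, 4 central pair, 16 doublet wall and 12 assembly genes, and 17 had no single place. Of the 93 members, 86 passed the filter on low counts and were tested, and the other 7 were too scarce: cfap90, cfap97d2, dnai2, tekt2, tekt3, one of the copies of dnai1 (ENSDARG00000100081) and one of dnal1 (ENSDARG00000097505). Those 7 had at most 0.243 CPM in any library, CPM being the counts of a gene scaled to a common library size.

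A motile cilium bends because dynein motors slide the microtubule doublets of its axoneme past each other. Outer and inner dynein arms do the work, radial spokes and the central pair relay signals to them, and the nexin link holds neighbouring doublets together and turns sliding into bending. The arms are put together in the cytoplasm by assembly factors before they are carried into the cilium. In the zebrafish embryo such cilia beat in Kupffer's vesicle at the tail end, where they set the left-right axis, and also in the floor plate of the neural tube and in the pronephric ducts. The transcription factor Foxj1 is known as the switch that turns on this set of genes, and Rfx factors act beside it.

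RNA was sequenced from pools of 80 tailbuds, 4 pools for each of 8 groups. The genotypes were rad21-/- and rad21+/-, both carrying a mutation in the core cohesin subunit gene rad21 (rad21a in the annotation) and told apart by genotyping the heads, stag2b-/-, homozygous for a mutation in the cohesin subunit gene stag2b, and wild type. Each genotype was sampled after 2.5 μM BIO (6-bromoindirubin-3'-oxime, a Gsk3 inhibitor that stimulates Wnt signalling) from 4 h after fertilization until dissection, and untreated, for which no vehicle is given in the sources used here. The rad21, stag2b and wild-type embryos came from separately kept lines, so genotype and line cannot be told apart in the comparisons with wild type, whereas rad21-/- and rad21+/- embryos carry the same allele. Libraries held 32464614 to 115057368 counts in genes. The 93 members together had 343 to 380 CPM in untreated rad21-/- pools, 474 to 608 in rad21+/-, 336 to 414 in stag2b-/- and 468 to 562 in wild type, with no member above 58.1 CPM in any library. The targeted gene rad21a averaged 53.9 CPM in untreated rad21-/- pools, 378 CPM in rad21+/- and 784 CPM in wild type. stag2b averaged 165 CPM in untreated stag2b-/- pools and 188 CPM in wild type, and its log2 fold change of -0.20 was not called, so its transcript level does not check that genotype's label. Of 13 rows for tailbud markers, 1 was at 0 in every untreated group, a second row for wnt8a, and the others were detected.

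Per length, the members covered a wide range. In untreated wild-type tailbuds cfap20, a doublet wall protein, had the highest level at 41.8 ± 4.09 CPM per kb of exon (SD, n = 4), followed by cfap36 at 37.1 ± 7.70, cfap298 at 16.1 ± 2.00 and dnaaf10 at 12.1 ± 0.767 CPM per kb. The last 2 are assembly factors. Ordered by level, cfap20 and cfap36 differed by less than 1 SD of cfap36, and both means were above cfap298 by more than its spread. At the other end, the inner arm heavy chain dnah3 had 0.0123 ± 0.0102 CPM per kb, rank 90 of 93.

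**Figure D1:**
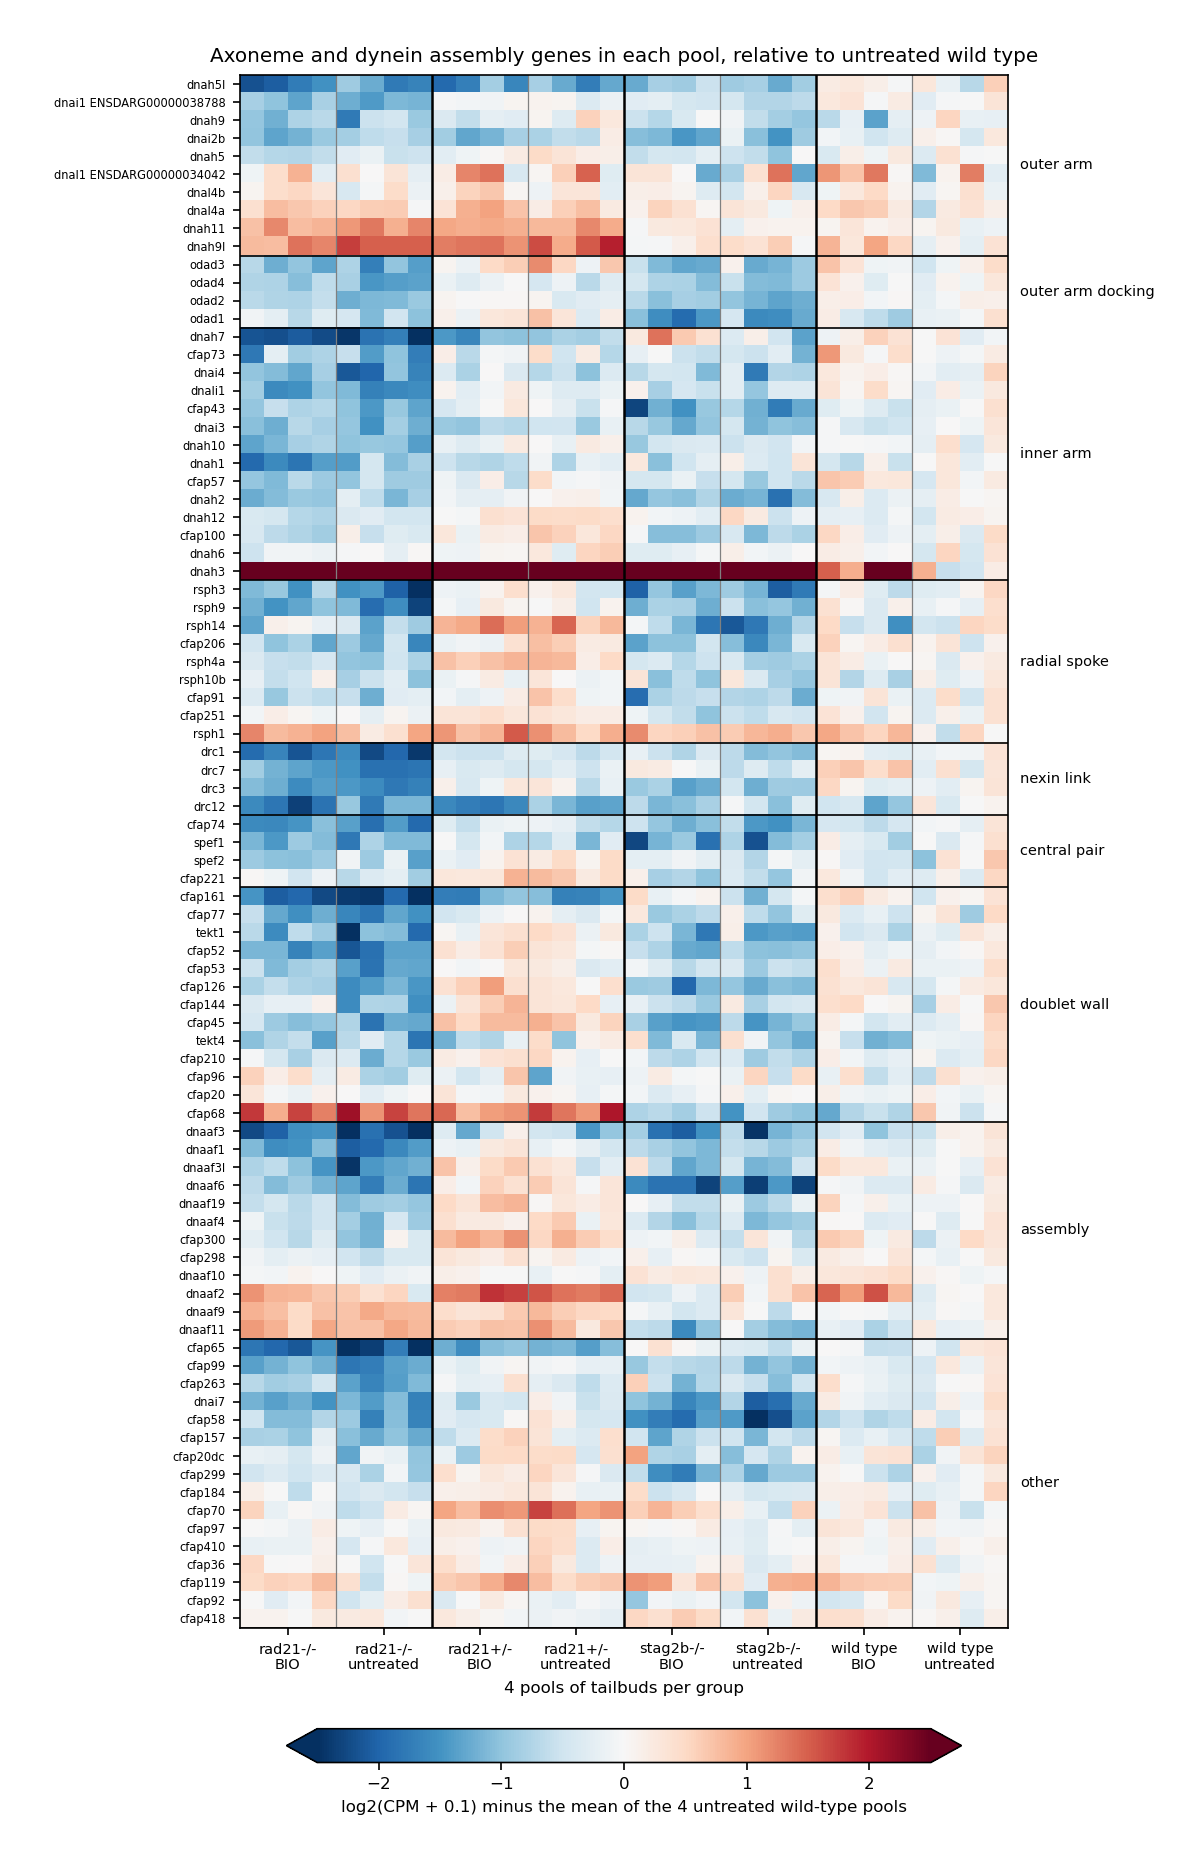
Level of each of the 86 tested members (rows, grouped by structure) in each of the 32 pools (columns, 4 per group), as log2(CPM + 0.1) minus the mean of the 4 untreated wild-type pools; blue is lower and red is higher, and the colours saturate at the ends of the scale. Most rows are blue in the untreated rad21-/- and stag2b-/- columns, where the median log2 fold change was -0.97 and -0.66. dnah3, dnah11, dnah9l and cfap68 are red in both rad21 genotypes, and dnah3 and cfap68 were near the floor in untreated wild-type pools.

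In untreated rad21-/- tailbuds the axoneme genes were lower than in wild type across nearly every structure. At a 5% false discovery rate (FDR) over all 20677 genes tested, 49 members fell and 7 rose, out of 86 (edgeR quasi-likelihood test, p-values adjusted after Benjamini and Hochberg). That is 57.0% of the members lower, where 16.7% of all genes tested were called lower, and 8.14% higher against 15.8% of all genes. The counts by class below are to be read beside these shares, and the distance of single classes from them was not tested. The median log2 fold change was -0.97 for the members and -0.02 for all genes. For 50 members every rad21-/- pool was below every wild-type pool, a separation seen in 15.5% of all genes. In bulk tissue fewer ciliated cells and less RNA per cell cannot be told apart.

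The nexin link was the class with the lowest median. All 4 tested nexin link genes fell in rad21-/- tailbuds, with a median log2 fold change of -1.81. drc1, which encodes a subunit needed to assemble this link, had 3.25, 2.00, 2.45 and 1.77 CPM in the rad21-/- pools, against 8.64, 9.46, 9.24 and 12.6 CPM in the wild-type pools. The groups did not overlap, and the log2 fold change was -2.07 ± 0.19 (SE, n = 4 pools per group, edgeR adjusted p = 3.0e-07), or 4.20-fold lower. drc12, another subunit, fell by 1.26 on the log2 scale (adjusted p = 0.00039) and drc7 by 1.91 (adjusted p = 3.9e-06).

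All 4 genes of the outer arm docking complex, which anchors outer dynein arms to the doublet, also fell. odad2 had 3.62, 3.87, 3.90 and 4.43 CPM in rad21-/- pools, against 7.22, 8.28, 9.47 and 9.29 CPM in wild-type pools, with no overlap between the groups (log2 fold change -1.11 ± 0.15, edgeR adjusted p = 1.8e-05). odad1 had the smallest change of the 4, at -0.75 ± 0.27 (adjusted p = 0.042), and its call was lost under 4 of 14 alternatives. Summed over the 4 genes, the docking complex had 12.6 ± 1.84 CPM in rad21-/- pools and 26.3 ± 4.29 CPM in wild-type pools (SD, n = 4).

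Of 10 tested genes of the outer arm itself 3 fell, 2 rose and 5 were not called, and the median log2 fold change was -0.25. Over all genes 16.7% were called lower and 15.8% higher, so these counts are not set apart from the background. dnah5, an outer arm heavy chain, had 14.8, 16.1, 12.3 and 12.6 CPM in rad21-/- pools, against 14.3, 23.7, 17.8 and 17.9 CPM in wild-type pools, and these overlapped (log2 fold change -0.39 ± 0.18, edgeR adjusted p = 0.11). dnah11, whose loss disturbs left-right asymmetry in mouse, had 43.4, 51.0, 38.1 and 48.2 CPM in rad21-/- pools, against 21.6, 24.3, 18 and 18.7 CPM in wild-type pools. It was thus 1.14 ± 0.13 higher on the log2 scale (adjusted p = 4.2e-06), and it was the most abundant outer arm gene in counts. With dnah11 included, the summed outer arm level was 82.4 ± 5.34 CPM in rad21-/- pools, against 69.8 ± 7.35 CPM in wild-type pools. The sum over all members, a larger set, was 368 ± 17.3 CPM in rad21-/- pools, against 494 ± 45.4 CPM in wild-type pools. Without dnah11 that sum was 323 ± 22.1 CPM in rad21-/- pools, against 473 ± 46.7 CPM in wild-type pools.

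Inner arm genes fell in 10 of 14 cases, with a median log2 fold change of -1.06. dnah7, an inner arm heavy chain, had 0.976, 1.52, 1.68 and 0.864 CPM in rad21-/- pools, against 5.69, 7.27, 4.65 and 5.46 CPM in wild-type pools, and every rad21-/- pool was below every wild-type pool (log2 fold change -2.18 ± 0.28, edgeR adjusted p = 1.4e-05). dnah2, another inner arm heavy chain, fell by 0.68 (adjusted p = 0.0098), while the heavy chain dnah12 was at -0.42 ± 0.20 and was not called. dnah3 was the exception in this class, and it is described below.

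Of 9 radial spoke genes 4 fell and 1 rose. With 9 genes, these counts are not set apart from the 16.7% lower and 15.8% higher of all genes. rsph3, which encodes a protein of the spoke stalk, had 0.542, 0.587, 0.352 and 0.205 CPM in rad21-/- pools, against 1.40, 1.43, 1.82 and 2.53 CPM in wild-type pools, with no overlap (log2 fold change -2.07 ± 0.36, edgeR adjusted p = 0.00030). The spoke head gene rsph4a fell by 0.83 (adjusted p = 0.0017). The spoke head gene rsph1 went the other way, at 10.6, 7.19, 8.25 and 12.4 CPM in rad21-/- pools against 6.72, 4.02, 9.06 and 6.20 CPM in wild-type pools. Those groups overlapped, and the call was close to the threshold (log2 fold change 0.57 ± 0.21, adjusted p = 0.048).

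Doublet wall genes, whose products line the inside of the microtubules, fell in 9 of 13 tested cases, and 1 rose. The 1 that rose was cfap68, named after its value was seen, and the limit from its low level in wild type is given below. cfap161 had 0.477, 0.459, 0.684 and 0.341 CPM in rad21-/- pools, against 2.03, 3.15, 3.05 and 3.72 CPM in wild-type pools, which did not overlap (log2 fold change -2.60 ± 0.30, edgeR adjusted p = 3.8e-06). cfap210 fell by 0.81, cfap126 by 1.46 and cfap53 by 1.48. cfap20, the most abundant member per length, had a log2 fold change of -0.08 ± 0.11 and was not called. In the central pair 2 of 4 fell, among them cfap74 at -1.66 ± 0.22 (adjusted p = 2.2e-05), while cfap221 was at -0.60 ± 0.27 and was not called. With 4 genes, the central pair count is not set apart from the 16.7% of all genes called lower.

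Assembly factors gave 7 that fell and 2 that rose, of 12. dnaaf6, which helps to fold dynein heavy chains, had 1.11, 0.807, 1.18 and 0.750 CPM in rad21-/- pools, against 3.38, 2.85, 2.23 and 3.36 CPM in wild-type pools, with no overlap (log2 fold change -1.61 ± 0.27, edgeR adjusted p = 0.00020). cfap298, needed for dynein arm assembly in zebrafish, fell by 0.48 (adjusted p = 0.0097). dnaaf10 was at -0.15 ± 0.11 and was not called. dnaaf11 was higher, at 7.27, 7.25, 8.48 and 7.66 CPM in rad21-/- pools against 5.11, 3.75, 3.82 and 4.74 CPM in wild-type pools, again without overlap (log2 fold change 0.82 ± 0.24, adjusted p = 0.013). The values of dnaaf3 and dnaaf3l, neighbours on chromosome 24 with the same counted length, are uncertain, since reads shared by near-identical copies may be lost.

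Members with no single place fell in 6 of 16 tested cases, and none rose. Over all genes 16.7% were called lower and 15.8% higher, and the distance of these counts from those shares was not tested. Among the members with no single place cfap65 had the largest change, at 1.45, 1.72, 2.72 and 1.34 CPM in rad21-/- pools against 8.51, 6.54, 11.3 and 11.7 CPM in wild-type pools. Every rad21-/- pool was below every wild-type pool (log2 fold change -2.39 ± 0.23, edgeR adjusted p = 4.6e-07). cfap36 and cfap97, abundant members of this class, were at -0.04 and -0.12 and were not called. Across all classes, the 10 members with the highest mean CPM per kb over the 32 libraries, a split made after the values were seen, had a median log2 fold change of -0.13, while the remaining 76 had -1.11. Whether those 10 are particular to motile cilia was not tested.

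**Figure D2:**
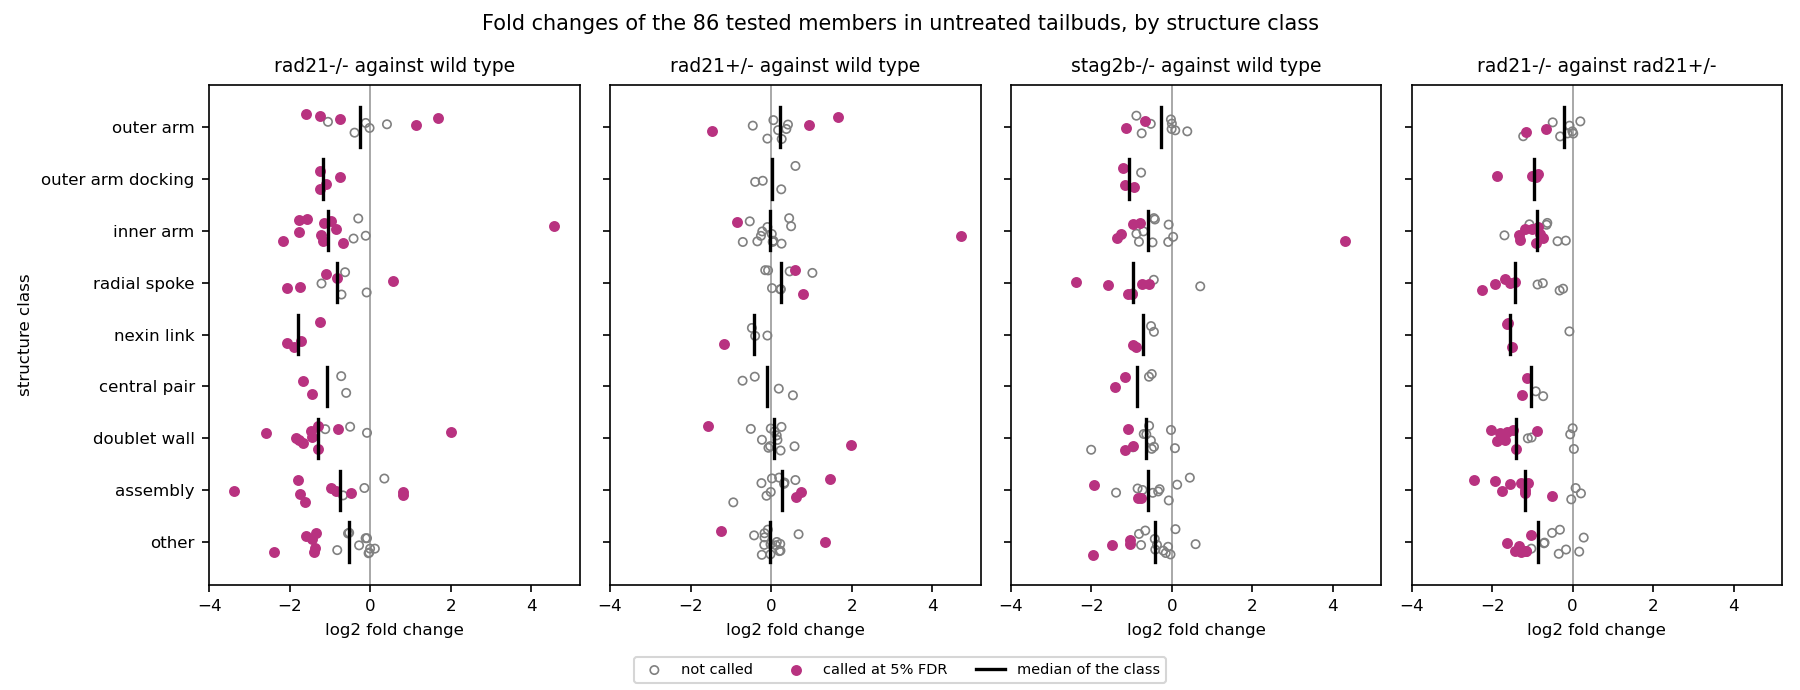
log2 fold change (x axis) of each tested member in untreated tailbuds, by structure class (y axis), in 4 comparisons; filled points passed the 5% FDR, open points did not, and the black line is the median of the class. All points of the docking and nexin link classes lie left of 0 in rad21-/- against wild type and in rad21-/- against rad21+/-, and the median over all members is 0.05 for rad21+/- against wild type.

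Untreated rad21+/- tailbuds did not show the decline. Out of 86 members 5 fell and 10 rose, and the median log2 fold change was 0.05. Of all genes, 9.75% were called lower and 10.8% higher, or 20.5% together, so the members' share was not above the background. The 5 that fell were drc12, cfap161, cfap65, dnah7 and, named after its value was seen, dnah5l. cfap65 had 4.05, 4.23, 3.52 and 4.41 CPM in rad21+/- pools, against 8.51, 6.54, 11.3 and 11.7 CPM in wild-type pools, and the groups did not overlap (log2 fold change -1.23 ± 0.22, edgeR adjusted p = 0.00051). cfap161 fell by 1.58, drc12 by 1.18 and dnah7 by 0.84. The call for dnah7 was lost under 6 of 14 alternatives. Tested directly, rad21-/- tailbuds were lower than rad21+/- in cfap65, by 1.16, and in dnah7, by 1.34, while cfap161 was at -1.02 ± 0.30 (edgeR adjusted p = 0.055) and drc12 at -0.08 ± 0.23 and neither was called.

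The members that rose in rad21+/- tailbuds included the spoke head genes rsph4a and rsph1, the outer arm chains dnah11 and dnah9l, and the assembly factors dnaaf2 and dnaaf11. rsph4a had 23.2, 22.8, 14.5 and 18.2 CPM in rad21+/- pools, against 13.3, 9.97, 13.8 and 15.1 CPM in wild-type pools, so that the groups overlapped (log2 fold change 0.59 ± 0.18, edgeR adjusted p = 0.023). cfap70 was at 2.91, 2.34, 1.76 and 1.94 CPM in rad21+/- pools and at 1.46, 0.761, 0.532 and 0.800 CPM in wild-type pools, without overlap (log2 fold change 1.35 ± 0.34, adjusted p = 0.0078). In rad21-/- tailbuds cfap70 was at -0.28 ± 0.35 and was not called. The rad21+/- call for rsph4a was lost under 3 of 14 alternatives.

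The direct comparison of rad21-/- with rad21+/- tailbuds, which carry the same allele in different dose, gave the same direction as the comparison with wild type. Both use the same rad21-/- pools, so their agreement is partly built in. In the direct comparison 48 of 86 members fell and none rose at 5% FDR by edgeR's quasi-likelihood test, where 5.32% of all genes were called, 3.84% lower and 1.47% higher. The count that passed an unadjusted p under 0.05 in either direction was 63, and DESeq2's Wald test called 51 lower and 0 higher. The median log2 fold change of the members was -1.02. For 56 members every rad21-/- pool was below every rad21+/- pool, against 7.78% of all genes. By class, 9 of 12 assembly factors fell, 8 of 13 doublet wall, 8 of 14 inner arm, 5 of 9 radial spoke, 4 of 4 docking, 3 of 4 nexin link, 2 of 4 central pair and 2 of 10 outer arm genes.

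Single members showed the same contrast. rsph4a had 6.48, 6.29, 9.06 and 7.46 CPM in rad21-/- pools, against 23.2, 22.8, 14.5 and 18.2 CPM in rad21+/- pools (log2 fold change -1.42 ± 0.18, edgeR adjusted p = 5.0e-05). dnah12, which was not called against wild type, had 3.43, 3.60, 3.19 and 3.18 CPM in rad21-/- pools, against 6.17, 6.13, 6.23 and 5.97 CPM in rad21+/- pools. In both genes the groups were far apart, and dnah12 fell by 0.87 (adjusted p = 0.013). dnah11 was at 0.19 ± 0.13 and dnah3 at -0.17 ± 0.42, and neither was called. dnah5 was at -0.66 ± 0.18 (adjusted p = 0.041), a call lost under 8 of 14 alternatives, with an adjusted p of up to 0.14.

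Untreated stag2b-/- tailbuds also had lower axoneme genes. Out of 86 members 29 fell and 1 rose, which is 33.7% lower where 3.88% of all genes tested were called lower and 2.41% higher. The median log2 fold change was -0.66. For 37 members every stag2b-/- pool was below every wild-type pool, against 5.76% of all genes. By class, 6 of 9 radial spoke genes fell, 3 of 4 docking genes, 4 of 14 inner arm, 3 of 13 doublet wall, 3 of 12 assembly, 2 of 4 nexin link, 2 of 4 central pair, 2 of 10 outer arm and 4 of 16 others. The count depended on single libraries: it was 16 called members without wild-type replicate 4 and 18 without stag2b-/- replicate 2.

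Among members whose log2 CPM averaged 0 or more, those that fell most in stag2b-/- tailbuds were cfap58, dnaaf6, rsph3 and dnai7. dnaaf6 had 1.06, 0.489, 1.01 and 0.505 CPM in stag2b-/- pools, against 3.38, 2.85, 2.23 and 3.36 CPM in wild-type pools, with no overlap (log2 fold change -1.93 ± 0.27, edgeR adjusted p = 0.00032). cfap58 had 1.49, 0.438, 0.824 and 1.58 CPM in stag2b-/- pools, against 4.71, 2.99, 4.07 and 5.11 CPM in wild-type pools, which again did not overlap (log2 fold change -1.96 ± 0.33, adjusted p = 0.0013). rsph3 fell by 1.59 (adjusted p = 0.010) and dnai7 by 1.5 (adjusted p = 0.0048). dnah2 fell by 1.35. odad1 fell by 1.17 and odad2 by 1.21. The call for odad1 was lost under 5 of 14 alternatives, while that for odad2 held under all 14. cfap65 was at -0.42 ± 0.21, cfap161 at -0.57 ± 0.27 and dnah7 at -0.45 ± 0.26, and none of these 3 was called.

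Tested directly, stag2b-/- and rad21-/- tailbuds differed in 26 members, 19 higher (22.1%) and 7 lower (8.14%) in stag2b-/-. Of all genes, 13.4% were called higher and 14.2% lower, or 27.6% together. The count of 26 in either direction is thus not set apart from the background. All 4 nexin link genes were higher in stag2b-/-, with a median log2 fold change of 0.95. drc1 had 6.25, 4.64, 4.96 and 4.59 CPM in stag2b-/- pools and 3.25, 2.00, 2.45 and 1.77 CPM in rad21-/- pools, a difference of 1.1 on the log2 scale. cfap161 was higher by 2.03, cfap65 by 1.97 and dnah7 by 1.73. Docking genes were called in neither direction, 0 of 4, too few genes to set apart from the shares of all genes. Of the 48 members lower in rad21-/- than in rad21+/-, and the 29 lower in stag2b-/- than in wild type, 24 were shared, which is 50% of the first list and 82.8% of the second, and these comparisons have no library in common. Among all genes the shared part was 17.4% of the first list and 17.2% of the second. In the first comparison 55.8% of the members were called lower, against 3.84% of all genes. In the second the shares were 33.7% and 3.88%. Larger shared parts are thus expected for the members, and whether theirs exceeded that was not tested. Both comparisons also came from 1 fit.

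The regulators of motile ciliogenesis were measured beside these genes. Of 10 tested, 4 fell in rad21-/- tailbuds and none rose, beside shares over the whole fit of 16.7% lower and 15.8% higher. In rad21+/- 1 fell and 2 rose, beside 9.75% and 10.8%, so these counts are not set apart from the background. In stag2b-/- 2 fell and none rose, beside 3.88% and 2.41%. With only 10 genes, the distance of the counts from these shares was not tested in any genotype. foxj1a (chromosome 3, 60716904 to 60733722, GRCz11) had 10.5, 10.6, 14.6 and 9.10 CPM in rad21-/- pools, against 18, 25.4, 26.5 and 28.5 CPM in wild-type pools. The groups did not overlap, and foxj1a fell by 1.13 (SE 0.18, edgeR adjusted p = 0.00010). Its paralogue foxj1b (chromosome 12, 20149305 to 20157014) had 2.23, 1.96, 2.45 and 2.89 CPM in rad21-/- pools, against 12.9, 13.4, 12.1 and 14.5 CPM in wild-type pools. It fell by 2.47 (SE 0.15, adjusted p = 2.1e-09), or 5.53-fold.

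In rad21+/- tailbuds neither was called: foxj1a was at 0.18 ± 0.17 and foxj1b at 0.17 ± 0.14. Against rad21+/-, rad21-/- tailbuds had foxj1a lower by 1.31 (SE 0.18) and foxj1b lower by 2.63 (SE 0.15). In stag2b-/- tailbuds foxj1b fell by 0.56 (SE 0.14, edgeR adjusted p = 0.023), at 9.77, 8.55, 9.48 and 8.26 CPM in stag2b-/- pools, all below the wild-type pools given above. foxj1a was at -0.46 ± 0.17 in stag2b-/- tailbuds and was not called (adjusted p = 0.14).

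rfx2, the Rfx factor that zebrafish Kupffer's vesicle needs for its cilia, had 34.8, 42.5, 50.8 and 43.9 CPM in rad21-/- pools, 90.5, 90.3, 67.7 and 67.0 in rad21+/- pools, 52.0, 53.0, 52.9 and 53.2 in stag2b-/- pools, and 61.8, 62.2, 64.0 and 62.4 CPM in wild-type pools. It fell by 0.54 in rad21-/- (edgeR adjusted p = 0.0020), rose by 0.33 in rad21+/- (adjusted p = 0.049), and was not called in stag2b-/- at -0.26 ± 0.12. rfx3 fell in stag2b-/- tailbuds, at 5.98, 4.64, 3.16 and 4.99 CPM in stag2b-/- pools against 7.27, 8.61, 8.14 and 9.41 CPM in wild-type pools (log2 fold change -0.84 ± 0.19, adjusted p = 0.0094). In rad21-/- tailbuds rfx3 was at 0.10 ± 0.18. A test of stag2b-/- against rad21-/- gave -0.94 ± 0.19 for rfx3. gmnc, a factor of multiciliated cells, had at most 0.696 CPM in any pool and was not called in the comparisons with wild type. mcidas had at most 0.163 CPM, was at 0 in all BIO-treated rad21-/- pools and was not tested.

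**Figure D3:**
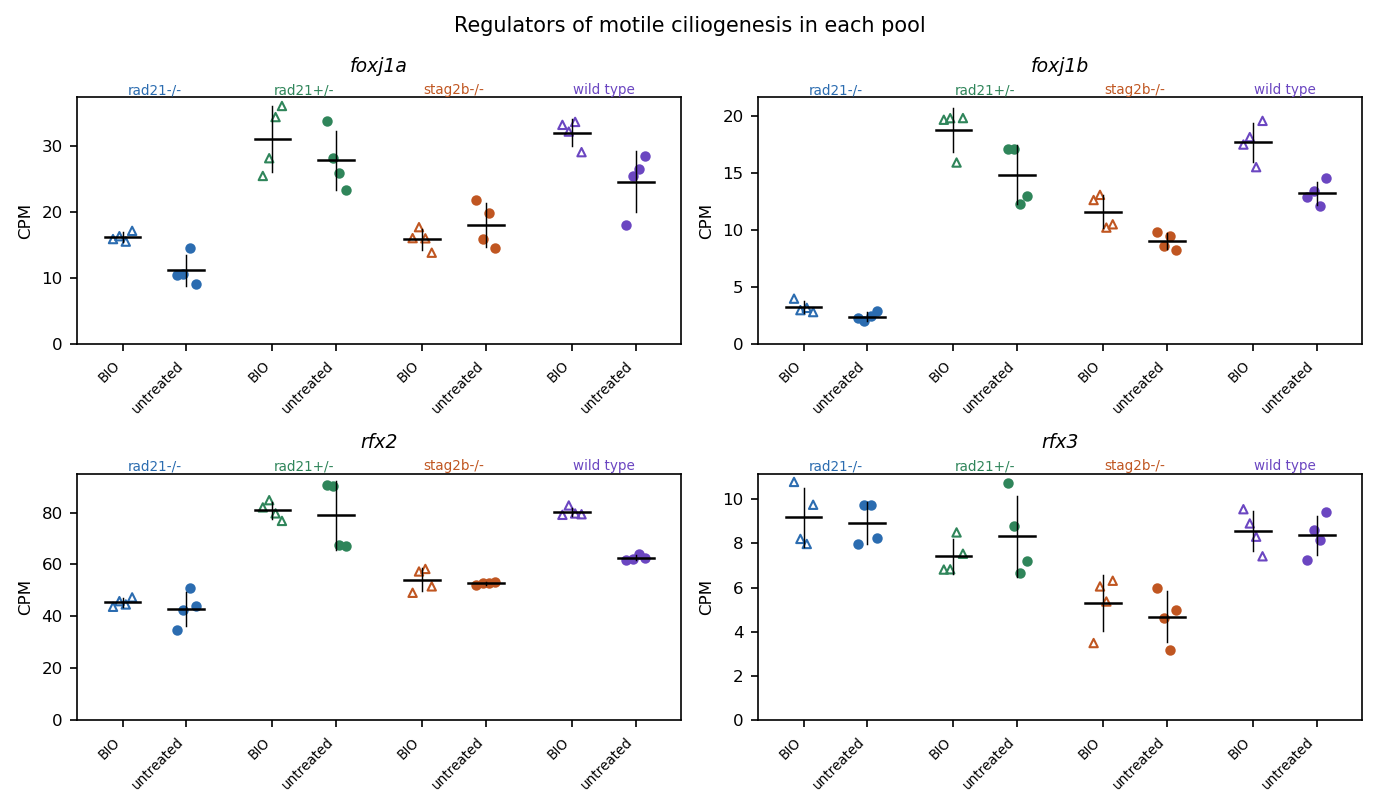
CPM (y axis) of foxj1a, foxj1b, rfx2 and rfx3 in each pool, by genotype and treatment (x axis; open triangles BIO, filled circles untreated); the bar is the mean and the thin line 1 SD over 4 pools. foxj1b is at 1.96 to 2.89 CPM in untreated rad21-/- pools and at 12.1 to 14.5 CPM in untreated wild-type pools, and rfx3 is at 3.16 to 5.98 CPM in untreated stag2b-/- pools.

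Axoneme genes with other symbols were counted in the same way. The shares of all genes called lower and higher were 16.7% and 15.8% in rad21-/-, 9.75% and 10.8% in rad21+/-, and 3.88% and 2.41% in stag2b-/-. Of 47 tested genes from a list that holds spoke, central pair, assembly and docking genes named otherwise, 33 fell and 2 rose in rad21-/- tailbuds, 6 fell and 5 rose in rad21+/-, and 15 fell and 1 rose in stag2b-/-. Their median log2 fold changes were -0.83, -0.07 and -0.53. In rad21+/- the counts of these axoneme genes were near the shares of all genes. Genes of intraflagellar transport, the carriers that build any cilium, motile or not, were counted beside them, and the difference between the lists was not tested. Of 18 tested, 6 fell and 1 rose in rad21-/- against wild type, 3 fell and none rose in rad21+/-, and 1 fell and none rose in stag2b-/-. Their median log2 fold changes were -0.25, -0.04 and -0.15. With 18 genes, the counts in rad21+/- and stag2b-/- are not set apart from the shares of all genes. None of the 18 was called in rad21-/- against rad21+/- by edgeR, where 5.32% of all genes were called. In that comparison 5 of the 18 had an unadjusted p under 0.05, and the median was -0.18.

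Markers of the places where motile cilia beat were counted in the same comparisons. Beside these counts stand the shares of all genes called lower and higher. They were 16.7% and 15.8% in rad21-/-, 9.75% and 10.8% in rad21+/-, and 3.88% and 2.41% in stag2b-/-. dand5, which marks Kupffer's vesicle and is named after its values were seen, spanned 8.89 to 20.8 CPM in rad21-/- pools, 15.6 to 39.1 in rad21+/-, 8.75 to 22.7 in stag2b-/- and 27.6 to 54.3 CPM in wild-type pools. It fell by 1.40 in rad21-/- (edgeR adjusted p = 0.0082). The other 4 listed markers of the vesicle were at or below 1.08 CPM in untreated pools, and summed over all 5 the list spanned 10.5 to 22 CPM in rad21-/-, 16.6 to 39.7 in rad21+/-, 9.59 to 23.4 in stag2b-/- and 28.4 to 55.5 CPM in wild type. Of 4 tested, 1 fell and 1 rose in rad21-/- tailbuds, none fell and 1 rose in rad21+/-, and 1 fell and 1 rose in stag2b-/-. Of 10 floor plate markers, one of which is foxj1a, 5 fell and 1 rose in rad21-/-, none fell and 3 rose in rad21+/-, and 4 fell and none rose in stag2b-/-. Their sum was 162 to 206 CPM in rad21-/-, 199 to 270 in rad21+/-, 134 to 197 in stag2b-/- and 166 to 224 CPM in wild type. Of 10 tested pronephros markers, 2 fell and 2 rose in rad21-/-, shares near the 16.7% and 15.8% of all genes, 1 fell in rad21+/-, and none passed the test in stag2b-/-. Their sum was 82.1 to 92.4 CPM in rad21-/-, 60.5 to 71.5 in rad21+/-, 66.6 to 102 in stag2b-/- and 56.2 to 83.0 CPM in wild type. None of these lists had a gene at 0 in a whole untreated group. Their part in the members' differences was not tested.

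Markers of other tissues were counted too, to be read against the shares over all genes, 16.7% lower and 15.8% higher in rad21-/- against wild type, and 9.75% and 10.8% in rad21+/-. Against wild type, blood markers fell in 4 of 5 cases in rad21-/- and in 5 of 5 in rad21+/-. Tailbud markers gave 7 lower and 2 higher of 11 in rad21-/- and 1 lower of 11 in rad21+/-. Heart markers rose in 2 of 3 in both. The heart list summed to 0.306 CPM in untreated wild-type pools, near the floor, against 1.35 in rad21-/- and 1.26 in rad21+/-. Its genes may have passed the filter on low counts through the rad21 groups, so these calls may not be independent of that filter. Muscle markers gave 1 lower and 2 higher of 6 in rad21-/-, notochord 1 lower and 2 higher of 5, epidermis 0 lower and 1 higher of 7, and head and eye 2 lower and none higher of 6, and with so few genes a list these counts are not set apart from the shares of all genes. In stag2b-/- tailbuds at most 1 gene of each of these lists passed in either direction, where 3.88% of all genes were called lower and 2.41% higher. The bearing of these counts on the axoneme genes was not tested.

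The members that rose in rad21-/- tailbuds were also high in rad21+/- tailbuds. All 7, namely dnah11, dnah9l, dnah3, dnaaf11, rsph1 and, named after their values were seen, cfap68 and dnaaf9, were also called higher in rad21+/- tailbuds, and the comparisons share the wild-type pools. The matching share among all genes was not computed, so this overlap is not set apart from that of all genes. Untreated wild-type pools averaged 0.195 CPM for cfap68 and 0.153 CPM for dnah3, both near the floor. These genes may have passed the filter on low counts through the groups where they were high. The rad21 calls for cfap68 and dnah3 may thus not be independent of that filter. The call for rsph1 in rad21-/- was lost under 7 of 14 alternatives, and that for dnaaf11 in rad21+/- under 5 of 14. None of the 7 differed between rad21-/- and rad21+/- at 5% FDR. dnah9l, an outer arm heavy chain on chromosome 6, had 2.23, 1.87, 1.89 and 1.86 CPM in rad21-/- pools, 2.06, 1.23, 1.93 and 2.58 in rad21+/- pools, 0.862, 0.799, 0.979 and 0.586 in stag2b-/- pools and 0.502, 0.653, 0.492 and 0.800 CPM in wild-type pools. Against wild type it was higher by 1.68 in rad21-/-, by 1.66 in rad21+/- and by 0.38 in stag2b-/-, the last not called. dnah11 lies on chromosome 16 (19181163 to 19349318), as does rad21a (48409066 to 48430272). The other 3 members on that chromosome were dnah5, dnali1 and cfap418, and none of these 3 was higher in rad21-/- tailbuds. Whether position on the chromosome has a part in these values was not tested. Line and genotype cannot be told apart in the comparisons with wild type.

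dnah3 (chromosome 24, 39443874 to 39511864) was high in all 3 mutant genotypes. It had 2.58, 4.64, 4.23 and 2.27 CPM in untreated rad21-/- pools, 3.72, 5.59, 1.87 and 4.35 in rad21+/- pools and 4.66, 3.53, 1.29 and 2.22 in stag2b-/- pools. In untreated wild-type pools it had 0.327, 0.0544, 0.0665 and 0.162 CPM. Every mutant pool lay above every wild-type pool, with log2 fold changes of 4.55 ± 0.54, 4.72 ± 0.54 and 4.30 ± 0.53 (edgeR adjusted p = 7.0e-06, 8.0e-06 and 0.00011), for rad21-/-, rad21+/- and stag2b-/-. It was the only one of the 86 members called higher in stag2b-/- tailbuds. Since only 1 wild-type pool was above 0.162 CPM, dnah3 passed the filter on low counts through the mutant groups where it was high, so its calls against wild type are not independent of that filter. The 3 comparisons share the wild-type pools.

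**Figure D4:**
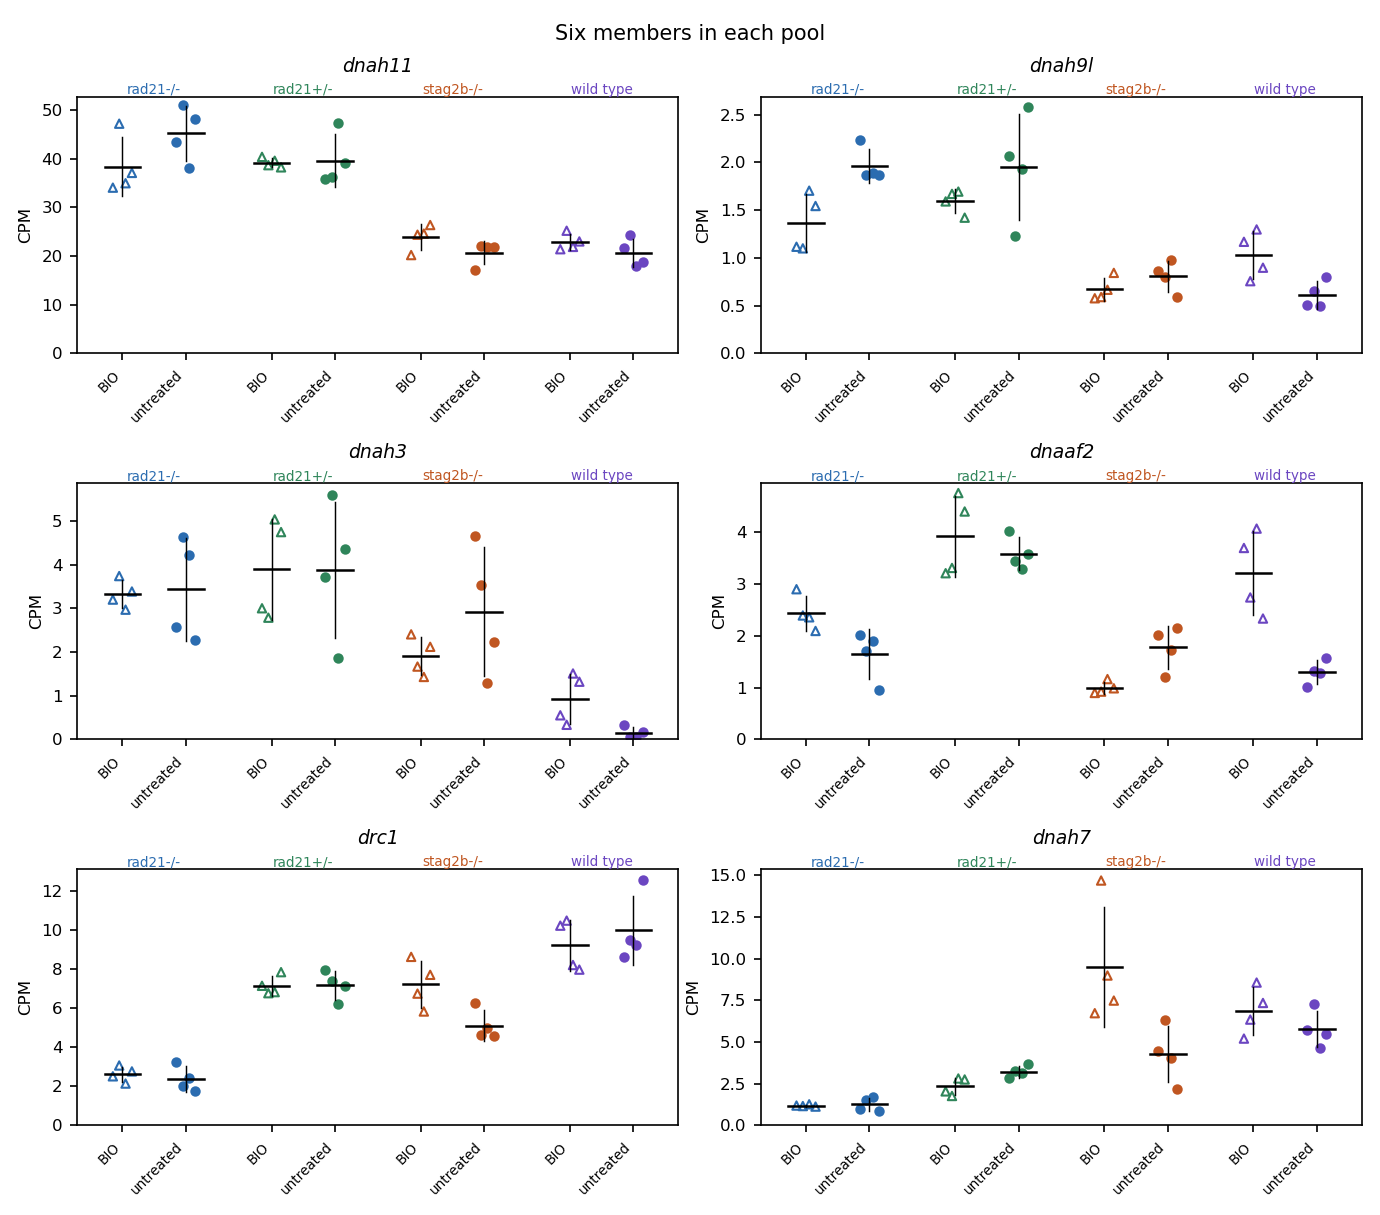
CPM (y axis) in each pool of 3 dynein chains that were higher in rad21 mutants (dnah11, dnah9l, dnah3), of the assembly factor dnaaf2, and of drc1 and dnah7, which were lower in rad21-/-; open triangles are BIO pools, filled circles untreated pools, the bar is the mean and the thin line 1 SD over 4 pools. dnah3 is at 0.0544 to 0.327 CPM in untreated wild-type pools and at 1.29 CPM or more in every untreated mutant pool.

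The response to BIO was tested within each genotype. In wild type 7 rose and 2 fell of 86, where 7.58% of all 21385 genes tested were called higher and 9.76% lower, or 17.3% together. In rad21-/- tailbuds 5 rose and 1 fell, where 2.1% of all genes were called higher and 5.06% lower (7.16% together), in stag2b-/- 1 rose and 1 fell, where 3.26% were called higher and 4.72% lower (7.99% together), and in rad21+/- none passed, where 1.31% were called higher and 2.31% lower (3.62% together). For rad21+/- the count was 0 by edgeR and by DESeq2's Wald test. The members with an unadjusted p under 0.05 numbered 23 in rad21-/-, 4 in rad21+/-, 13 in stag2b-/- and 13 in wild type. The median log2 fold changes of the members were 0.29 in rad21-/-, 0.02 in rad21+/-, 0.05 in stag2b-/- and -0.02 in wild type. Epidermal markers fell with BIO in 7 of 7 cases in wild type, 3 in rad21-/-, 5 in stag2b-/- and none in rad21+/-, and their part in the members' response was not tested.

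In wild type the 4 members with the largest rise were dnah3, dnaaf2, cfap119 and dnah9l. dnaaf2, a factor for dynein preassembly, had 3.70, 2.74, 4.07 and 2.34 CPM in BIO-treated wild-type pools, against 1.00, 1.32, 1.29 and 1.56 CPM in untreated ones, with no overlap (log2 fold change 1.30 ± 0.22, edgeR adjusted p = 9.6e-05). dnah3 had 0.552, 0.334, 1.51 and 1.32 CPM in BIO-treated wild-type pools, all above the untreated pools (2.63 ± 0.52, adjusted p = 0.00075). Its untreated pools were near the floor, and the limit from the filter given above for dnah3 holds here too. drc12 fell by 0.77 (adjusted p = 0.011), and rsph1, drc7 and dnaaf10 rose by 0.72, 0.59 and 0.35. The other member that fell was cfap68, by 1.66, named after its value was seen. cfap68 averaged 0.195 ± 0.109 CPM (SD, n = 4) in untreated wild-type pools, near the floor, so this call may not be independent of the filter. Without untreated wild-type replicate 1 the count was 4 members, all higher.

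In rad21-/- tailbuds the members that rose with BIO were the doublet wall genes cfap144, cfap126 and cfap53, drc7 and odad2. cfap126, also known as flattop, had 2.64, 3.02, 2.67 and 2.58 CPM in BIO-treated rad21-/- pools, against 1.5, 1.69, 2.05 and 1.61 CPM in untreated ones, with no overlap (log2 fold change 0.67 ± 0.21, edgeR adjusted p = 0.045). cfap144 rose by 1.04, cfap53 by 0.65, drc7 by 0.63 and odad2 by 0.40, and dnah1 fell by 0.95. These calls were near the threshold, and without single BIO-treated rad21-/- libraries (replicates 1, 2 or 4) 1 member was called in place of 6. Without untreated rad21-/- replicate 1, 2 or 4 the count was 3, 2 or 2. foxj1a rose by 0.54 in the same comparison (adjusted p = 0.024) and foxj1b was at 0.44 ± 0.14, not called. In wild type foxj1b rose by 0.42 (adjusted p = 0.022) and rfx2 by 0.36 (adjusted p = 0.0075).

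In stag2b-/- tailbuds dnah7 was the member that rose with BIO, at 6.73, 14.7, 8.99 and 7.49 CPM in BIO-treated pools against 4.47, 6.34, 4.07 and 2.2 CPM in untreated ones. The groups did not overlap (log2 fold change 1.15 ± 0.25, edgeR adjusted p = 0.0044). dnaaf2 fell, at 0.898, 0.923, 1.17 and 0.987 CPM in BIO-treated stag2b-/- pools against 2.02, 1.21, 1.73 and 2.16 CPM in untreated ones (log2 fold change -0.83 ± 0.22, adjusted p = 0.020). Without BIO-treated stag2b-/- replicate 1 or 2, or untreated replicate 4, 1 member was called in place of 2, and without untreated replicate 3 it was 4.

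The response to BIO differed from that of wild type in 2 members. The interaction of genotype and BIO was called for dnah3 in all 3 mutant genotypes and for dnaaf2 in rad21+/- and stag2b-/-. Of all genes, 0.482% were called lower and 0.393% higher in the interaction for rad21-/-, 0.486% and 0.426% for rad21+/-, and 0.631% and 0.711% for stag2b-/- (0.874%, 0.912% and 1.34% in either direction). The calls were 1.16% of the members in rad21-/- and 2.33% in rad21+/- and in stag2b-/-, too few to set apart from those shares. For dnaaf2 the response in stag2b-/- was 2.13 ± 0.31 lower than in wild type on the log2 scale (edgeR adjusted p = 0.00027), and the response in rad21+/- was 1.17 ± 0.30 lower (adjusted p = 0.049). For dnah3 the differences were -2.68 ± 0.66 in rad21-/- (adjusted p = 0.041), -2.64 ± 0.66 in rad21+/- (adjusted p = 0.046) and -3.26 ± 0.66 in stag2b-/- (adjusted p = 0.010). The 3 interactions share the wild-type pools. For dnah3 the untreated wild-type pools were near the floor, and the limit from the filter given above holds here too. The call for dnah3 in rad21-/- was lost under 13 of 20 alternatives, most of which left out 1 library, that for dnah3 in rad21+/- under 14 and that for dnaaf2 in rad21+/- under 16, while both calls in stag2b-/- held under all 20.

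The genotypes were also compared with BIO in both groups. In BIO-treated rad21-/- tailbuds 46 members fell and 5 rose against BIO-treated wild type, where 18.8% of all genes were called lower and 16.8% higher, with a median log2 fold change of -0.65. In BIO-treated rad21+/- tailbuds 9 fell and 11 rose, where 11.2% of all genes were called lower and 11.7% higher (22.9% together). In BIO-treated stag2b-/- tailbuds 36 fell and none rose by edgeR, where 7.04% of all genes were called lower and 6.56% higher. In that last comparison 48 members had an unadjusted p under 0.05, DESeq2's Wald test called 37 lower and 0 higher, and the median log2 fold change was -0.55. All 4 docking genes fell in BIO-treated stag2b-/- tailbuds, and all 4 nexin link genes in BIO-treated rad21-/- tailbuds.

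drc1 had 2.51, 3.07, 2.14 and 2.76 CPM in BIO-treated rad21-/- pools, against 10.2, 10.5, 8.21 and 7.97 CPM in BIO-treated wild-type pools (log2 fold change -1.81 ± 0.17). The groups did not overlap. foxj1b was at 3.96, 2.96, 3.16 and 2.79 CPM in BIO-treated rad21-/- pools, against 17.5, 18.1, 15.5 and 19.5 CPM in BIO-treated wild-type pools (log2 fold change -2.46 ± 0.14). foxj1a in BIO-treated stag2b-/- pools was at 16, 17.7, 16 and 13.8 CPM, against 33.2, 32.2, 33.6 and 29.1 CPM in BIO-treated wild-type pools, and it fell by 1.01 (SE 0.15).

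**Figure D5:**
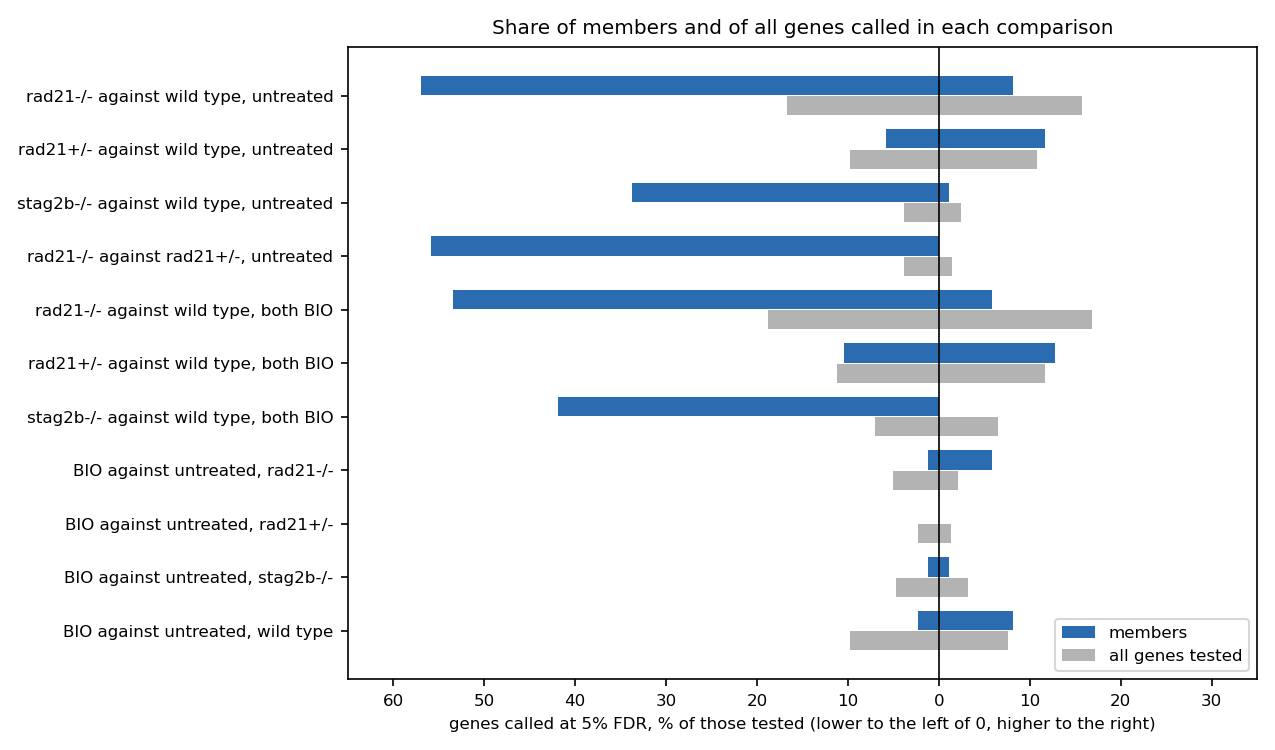
Share of the 86 tested members (blue) and of all genes tested (grey) called at 5% FDR in each comparison, lower to the left of 0 and higher to the right (x axis, % of those tested). For rad21-/- against rad21+/-, 48 of 86 members are lower and none higher, where 3.84% of all genes are lower, and for the response to BIO 6 members are called in rad21-/-, 0 in rad21+/-, 2 in stag2b-/- and 9 in wild type.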

How the data were processed

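The deposited table held raw gene counts for all 32 libraries, made by the authors with cutadapt, HISAT2, SAMtools and featureCounts 1.5.3 (per the file header: paired, stranded counting of exons by gene, GRCz11 with an Ensembl annotation; reads that map to several places or overlapping genes are left out by its defaults), and an exon length per gene. Symbols came from a name table, which paired 28988 of 32057 IDs, and listed paralogues were matched by RefSeq symbol and chromosome. Reads of near-identical or overlapping copies (dnal1, dnaaf3) may be undercounted.

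Counts were scaled by TMM, filtered with filterByExpr and tested with edgeR 4.0.16 (quasi-likelihood, R 4.3.3), with Benjamini-Hochberg adjustment over all genes at 5% FDR: 16 untreated libraries (20677 genes) for untreated contrasts and all 32 (21385 genes) for BIO contrasts and interactions. ± after a log2 fold change is its SE, taken as the absolute log2 fold change over the square root of the quasi-likelihood F statistic. It thus rests on the dispersion of the whole fit, not on the compared pools alone. CPM used the TMM-scaled library sizes. Alternatives were DESeq2 1.42.0, its size factors, no filter, other sets of libraries, a replicate block, and leaving out each library. Scripts were tested on simulated counts. Figures used matplotlib 3.10.9 in Python 3.11.15. Libraries of 32464614 to 115057368 counts limit the precision for members below 1 CPM. The groups come from sample titles. Replicates are pools of 80 tailbuds each, and whether pools came from separate clutches is not given in the sources used here.

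Members with values are the 2 most abundant of each class, the 4 largest called changes in each direction for the mutant comparisons and BIO responses (average log2 CPM of at least 0), called interactions, foxj1a, foxj1b, rfx2, rfx3, gmnc, mcidas and the mutated genes. The members and lists were chosen with earlier results of these data known. Promoter motifs were planned and not run, since no promoter sequences were used here.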

Additional observations from a re-analysis of the deposited data

Results flagged for a closer look

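Among 304 groups of 4 pools (38 named genes in 8 groups), 9 held a pool far from the other 3 by Dixon's test, where chance alone gives about 1 in 20 groups. In untreated rad21-/- pools replicate 1 was high for dnah9l, at 2.23 CPM against 1.86 to 1.89 in the others, and for drc7, at 1.13 CPM against 0.862 to 0.887. In untreated stag2b-/- pools replicate 1 was low for dnah11, at 17.2 CPM against 21.8 to 22, and high for rsph4a, at 9.90 CPM against 6.92 to 7.39. In BIO-treated stag2b-/- pools cfap221 stood at 1.70 CPM in replicate 1 against 0.722 to 0.888 in the others, and cfap36 at 41.0 CPM in replicate 4 against 33.2 to 33.7. In BIO-treated rad21+/- pools cfap221 stood at 2.90 CPM in replicate 4 against 1.88 to 1.90, and foxj1b at 15.9 CPM in replicate 3 against 19.6 to 19.8. In untreated wild-type pools cfap53 stood at 11 CPM in replicate 4 against 7.22 to 7.46 in the others.

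The response to BIO differed from that of wild type, by the interaction term of the edgeR fit (adjusted after Benjamini and Hochberg), for dnah3 in rad21-/- (-2.68, adjusted p = 0.041), in rad21+/- (-2.64, adjusted p = 0.046) and in stag2b-/- (-3.26, adjusted p = 0.010), and for dnaaf2 in rad21+/- (-1.17, adjusted p = 0.049) and in stag2b-/- (-2.13, adjusted p = 0.00027). All 5 are set against the same wild-type pools, and those for dnah3 carry the limit from the filter given above.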

How the results depend on the processing

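Of 153 results on single named members, 113 kept their call and direction under every alternative run, 40 lost the call under at least 1, and 0 changed direction. Counts of called members moved by over 1.5 times as follows, and the cause was not tested. Fitted to the 8 libraries compared alone, stag2b-/- against wild type gave 17 (16 lower, 1 higher). Without the filter on low counts, BIO gave 2 in rad21-/-, and the interactions gave 0 in rad21-/- and 0 in rad21+/-. With DESeq2's size factors the rad21+/- interaction gave 1. DESeq2's Wald test gave 5 for BIO in stag2b-/- and 3 for the rad21-/- interaction. With the replicate number as a block, BIO gave 1 in rad21+/- and 5 in stag2b-/-, and the rad21+/- interaction gave 1. The other counts stayed within 1.5 times under the block. Same-numbered pools correlated with a median r of 0.104, from -0.146 to 0.379, and 57 of 112 such pairs exceeded 0.1, against a median of -0.052 and 41 of 336 for differently numbered pools. All 4 pairs exceeded 0.1 in 3 pairs of groups, none of them compared here. Same-numbered pools thus varied together more than others did, and the main fits took no account of the replicate number. Whether same-numbered pools share a source was not tested.

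Leaving out 1 library gave 53 to 57 called members for untreated rad21-/- against wild type, 12 to 16 for rad21+/-, 16 to 31 for stag2b-/-, 33 to 45 for rad21-/- against rad21+/- and 21 to 29 for stag2b-/- against rad21-/-. Responses to BIO numbered 1 to 6 members for rad21-/-, 0 to 0 members for rad21+/-, 1 to 4 members for stag2b-/- and 4 to 9 members for wild type. With BIO in both groups it gave 42 to 51 for rad21-/-, 16 to 21 for rad21+/- and 26 to 35 for stag2b-/-, and for the interactions 0 to 2, 0 to 1 and 2 to 2.

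Depth limits the 7 untested members and those below 1 CPM. Pools of tailbuds hold many tissues, the lines differ, and p-values measure the spread between pools. Untreated wild-type pools spread widest, with a chi-square per gene between replicates of 75.8 to 193, against 8.75 to 105 in the other groups. Epidermal markers summed to 25503 to 56820 CPM in those wild-type pools. In untreated mutant pools the sum was 32225 to 44305 CPM for rad21-/-, 28362 to 41282 for rad21+/- and 38600 to 49288 for stag2b-/-. A planned comparison of promoter motifs was not run.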
